A study of Mus musculus with 2 samples.

Results

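The 9 genes described here encode transcription factors that mark the skeletal lineages. They are *Runx2*, *Sp7* and *Dlx5* of bone, *Sox9*, *Sox5* and *Sox6* of cartilage, *Scx* and *Mkx* of tendon, and *Twist1* of mesenchyme. They were taken by symbol from the 32285 genes of the deposited matrices, and each symbol had 1 row in both matrices. The study profiled single cells of femurs from 7-week-old C57BL/6J mice by droplet RNA sequencing, in which each captured mRNA molecule carries a cell barcode and a unique molecular identifier (UMI). The untreated group was 1 library from 6 mice. The calcitriol-injected group was 1 library from 6 mice that had received 3 injections of calcitriol (1,25-dihydroxyvitamin D3, the active form of vitamin D) at 2.5 μg/kg, with the femurs taken 24 h after the last one. In both groups the epiphyses had been cut off, the marrow flushed out, and CD45+ cells depleted after digestion with collagenase and EGTA. No vehicle-injected group was analysed here, so calcitriol and the injections themselves cannot be told apart. With 1 library of pooled femurs per group, no difference between the groups has a replicate check and no p-value is given.

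A limb mesenchymal progenitor can give rise to bone, cartilage, tendon and loose connective tissue, and a few transcription factors set these fates. RUNX2 is required for osteoblast formation, SP7 (osterix) acts downstream of it, and DLX5 is a homeodomain factor that promotes osteoblast genes. SOX9 is the master factor of cartilage, and SOX5 and SOX6, which lack a transactivation domain of their own, help it to activate cartilage matrix genes. Growth plate chondrocytes that approach hypertrophy also use RUNX2. Scleraxis (SCX) and mohawk (MKX) drive the tendon programme, and TWIST1 is a mesenchymal basic helix-loop-helix factor that can restrain RUNX2.

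The positions refer to GRCm38 with the GENCODE annotation. *Runx2* lies on chromosome 17 (44495987 to 44814797, minus strand) and *Sp7* on chromosome 15 (102356606 to 102367182, minus strand). *Dlx5* lies on chromosome 6 (6877805 to 6882085, minus strand), as does *Sox5* (143828425 to 144781977, minus strand). *Sox9* lies on chromosome 11 (112782224 to 112787760, plus strand) and *Sox6* on chromosome 7 (115470872 to 116038796, minus strand). *Scx* lies on chromosome 15 (76457452 to 76459458, plus strand) within *Bop1*, which runs on the other strand, and *Twist1* on chromosome 12 (33957671 to 33959829, plus strand).

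RefSeq promoters of GRCm38.p6 were searched for 4 of the 9 members, *Runx2*, *Sox5*, *Sox6* and *Twist1*. None was at hand for *Sp7*, *Dlx5*, *Sox9* and *Scx*, and the position and promoter of *Mkx* are not reported here. The 250 bases before the start were searched on both strands for motifs of the members' own families. These were RUNX (TGTGGT or TGCGGT), SOX (ACAATG or ACAAAG), the E-box (CANNTG) of TWIST1 and SCX, and the homeodomain motif TAATTA. Of 32851 promoters, 18.6% held the RUNX motif, 25.2% the SOX motif, 66.2% an E-box and 4.84% the homeodomain motif. Shown are the promoters of *Runx2* (chr17:44814628-44814877), *Sox5* (chr6:143947107-143947356) and the first of 6 starts of *Sox6* (chr7:116038745-116038994), since each holds 1 match to the motif of its own family. The *Sox5* start used here lies within the gene, far from its upstream end. All 3 promoters are on the minus strand and are written 5′ to 3′, with the match in capitals.
Runx2: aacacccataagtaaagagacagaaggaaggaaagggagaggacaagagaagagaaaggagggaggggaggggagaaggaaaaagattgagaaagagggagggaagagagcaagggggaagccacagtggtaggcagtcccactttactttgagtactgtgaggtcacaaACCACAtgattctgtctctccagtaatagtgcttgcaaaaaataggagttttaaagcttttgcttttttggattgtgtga
Sox5: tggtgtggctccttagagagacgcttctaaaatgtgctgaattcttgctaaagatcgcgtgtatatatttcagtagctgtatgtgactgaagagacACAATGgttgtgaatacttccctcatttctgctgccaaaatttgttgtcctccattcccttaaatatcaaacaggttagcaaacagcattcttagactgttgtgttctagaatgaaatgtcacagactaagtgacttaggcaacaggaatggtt
Sox6: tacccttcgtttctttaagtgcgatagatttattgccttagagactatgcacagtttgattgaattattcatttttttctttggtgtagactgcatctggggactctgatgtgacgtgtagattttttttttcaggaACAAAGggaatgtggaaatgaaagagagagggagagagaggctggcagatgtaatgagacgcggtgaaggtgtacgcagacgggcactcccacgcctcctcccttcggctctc
The RUNX match of *Runx2* is the reverse complement of TGTGGT, began 80 bases before the start and overlapped an E-box that began at 78 bases. The SOX match of *Sox5* began 154 bases before the start. *Twist1* held none of the 4 motifs in this window. A match is a description of the letters and not of binding.

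After the filters, 4399 untreated and 3693 calcitriol-injected cells remained, of which 1727 and 2845 fell into 13 skeletal cell types. The median skeletal cell had 13515 UMIs in the former and 13674 in the latter library. The share of UMIs from haemoglobin genes was 41.2% and 10.6% over all barcodes, and 1.98% and 0.537% within the skeletal types. The libraries shared 8 barcodes as deposited and 2 among the cells kept. Clusters were named from marker lists that hold none of the 9 members, and the members were kept out of the clustering. The osteocyte-like cluster (92 cells) met 7 of 8 osteocyte and 4 of 8 chondrocyte markers, with *Dmp1*, *Mepe* and *Phex* among its leading genes. There were 2 osteoblast-like clusters, one *Bglap*-high (227 cells) and one *Postn*-high (453 cells). The 4 chondrocyte-like clusters were *Col10a1*-high (138 cells), *Matn3*-high (277), *Notum*-high (320) and *Cytl1*-high (762, with *Prg4* among its leading genes). The 3 tendon-like clusters were *Kera*-high (327 cells), *Chodl*-high (275) and *Igfbp2*-high (254). They met 6, 8 and 5 of 8 tendon markers. The class with the next most markers was fibroblast for the *Kera*-high cluster (5 of 8). For the *Chodl*-high (2 of 8) and *Igfbp2*-high clusters (3 of 8) it was osteoblast. A fibroblast-like cluster held 1104 cells and a synovial lining-like cluster 120. A cluster of 223 cells met 7 of 8 chondrocyte and 6 of 8 osteoblast markers, was led by *Ibsp*, *Snorc* and *Col2a1*, and stayed unnamed.

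The skeletal types held the 9 factors in different combinations. The *Bglap*-high osteoblast-like cells held *Runx2*, *Sp7*, *Dlx5* and *Twist1*, together with *Sox9* and with lower *Scx* and *Mkx*. *Sox5* (45 UMIs) and *Sox6* (54) were below *Dlx5* (105) in their untreated library. In the calcitriol-injected library *Dlx5* (59 UMIs) was close to *Sox5* (67) and *Sox6* (57). The chondrocyte-like types all held *Sox9*, *Sox5* and *Sox6* and differed from each other in *Runx2*, *Sp7* and *Twist1*. The *Kera*-high and *Chodl*-high tendon-like cells held *Scx*, *Mkx* and *Twist1* with little *Runx2* and almost no *Sp7*. The *Kera*-high cells also held *Sox9*, above its level in the fibroblast-like cells, and *Sox5*. In their untreated library *Sox5* (72 UMIs) was below *Scx* (466) and *Mkx* (116). In the calcitriol-injected library *Sox5* (171 UMIs) was above *Scx* (94) and *Mkx* (105). The fibroblast-like cells held *Twist1* and *Sox9* with little of the bone and tendon factors. Levels are UMIs of a gene per 1000000 UMIs (CPM), summed over the cells of a type in 1 library, and types are said to overlap where the ranges spanned by the 2 libraries overlap. The values of a type are given for the untreated and then the calcitriol-injected library. Square brackets give exact 95% intervals (Poisson for sums, conditional for ratios, Clopper-Pearson for shares), which cover counting error only and not the variation between mice or libraries. Those for sums and ratios do not cover the spread between cells either.

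**Figure D1:**
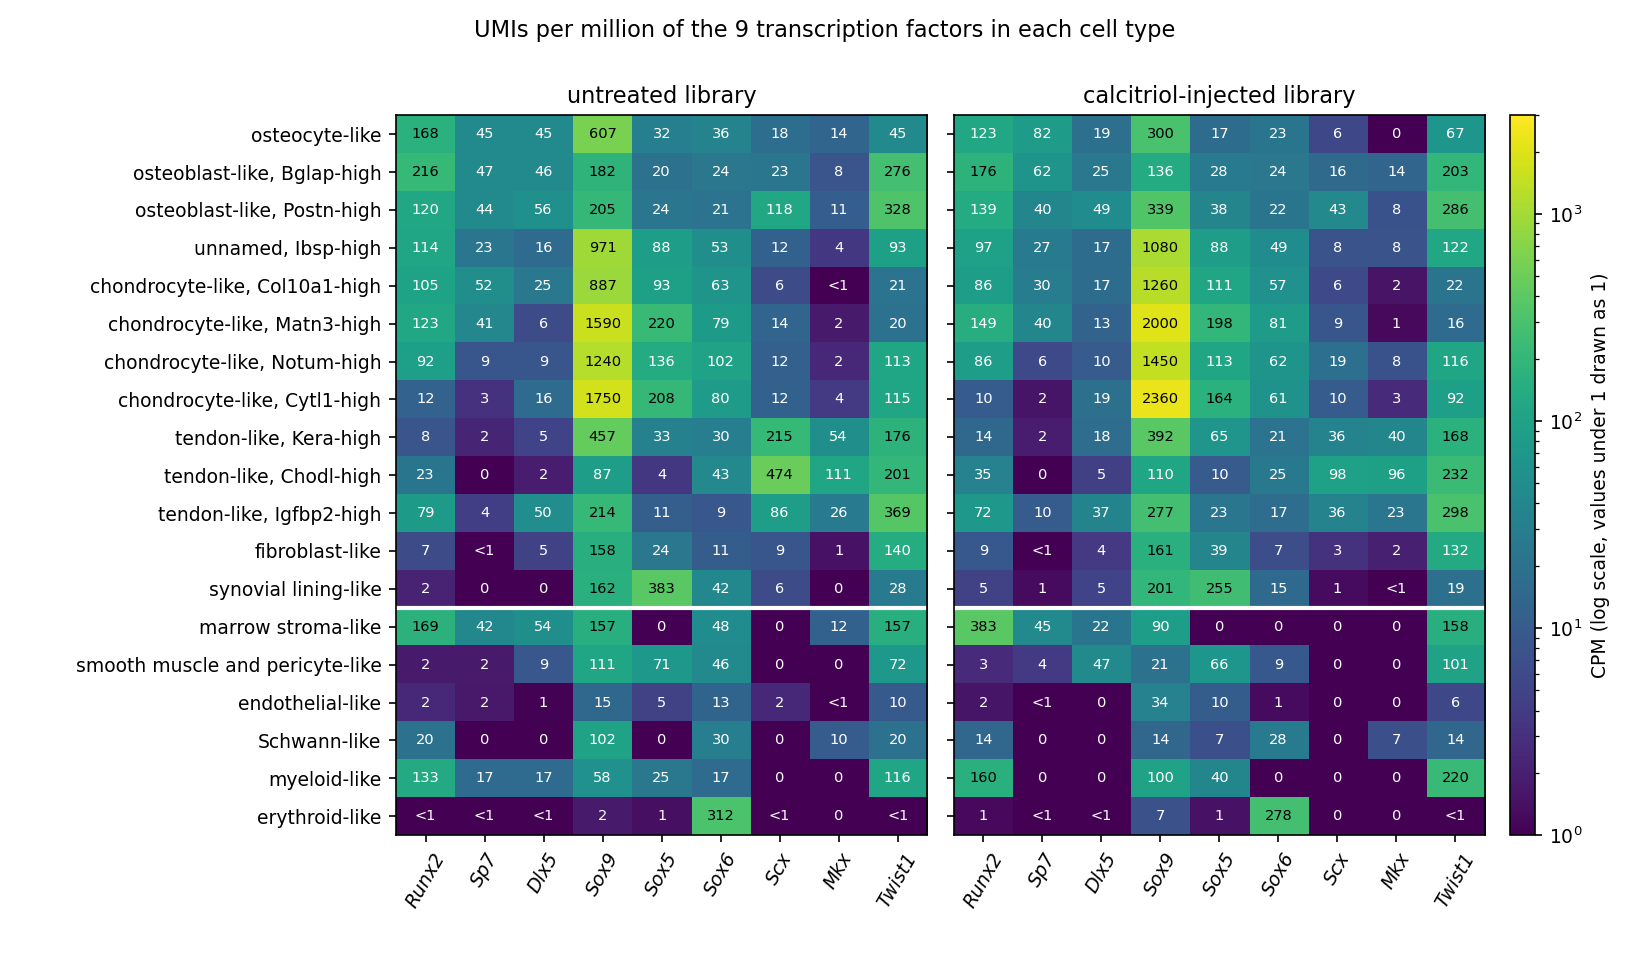
Level of each of the 9 transcription factors (columns) in each cell type (rows) as CPM on a log colour scale, with the untreated library on the left and the other on the right. The white line parts the 13 skeletal types from the others. *Sox9* lies between 887 and 2360 in the chondrocyte-like and *Ibsp*-high types, and *Scx* is highest in the *Chodl*-high tendon-like cells (474 and 98.4) and *Sox6* in the erythroid-like cells (312 and 278). The calcitriol-injected marrow stroma-like row holds 2 cells.

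*Runx2* was highest among the skeletal types in the *Bglap*-high osteoblast-like cells. Its level there was 216 [197, 236] and 176 [160, 194] CPM, and this type stood apart from the next one. The next 3 types overlapped. They were the osteocyte-like cells (168 and 123 CPM), the *Matn3*-high chondrocyte-like cells (123 and 149 CPM) and the *Postn*-high osteoblast-like cells (120 and 139 CPM). The *Matn3*-high chondrocyte-like cells were thus not separated in *Runx2* from the *Postn*-high osteoblast-like cells. The *Col10a1*-high chondrocyte-like cells had 105 and 86.2 CPM, and the *Notum*-high cells 91.8 and 86.2 CPM. In the *Cytl1*-high chondrocyte-like cells it was only 12.4 [8.77, 17.0] and 10.4 [8.42, 12.8] CPM, in the same range as the *Kera*-high tendon-like cells (8.32 and 14.5 CPM). The *Igfbp2*-high tendon-like cells stood out from the other tendon-like cells with 79.2 and 71.6 CPM, against 22.7 and 35.0 CPM in the *Chodl*-high cells. In the *Igfbp2*-high cells the 8 osteoblast markers summed to 18300 and 15000 CPM and the 8 tendon markers to 7350 and 9160 CPM. The osteoblast markers also summed to 16200 and 8050 CPM in the *Kera*-high and to 13400 and 6950 CPM in the *Chodl*-high cells. The part of the osteoblast markers in the *Runx2* level of the *Igfbp2*-high cells was not tested. The fibroblast-like cells had 6.52 and 8.99 CPM and the endothelial-like cells, which are outside the skeletal types, 2.44 and 1.59 CPM.

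*Sp7* followed *Runx2* with a steeper drop outside bone and growth plate cartilage. It was detected at 45.3 [21.7, 83.3] and 81.5 [63.8, 103] CPM in the osteocyte-like cells and at 46.7 and 62.4 CPM in the *Bglap*-high osteoblast-like cells, which overlapped. The *Postn*-high osteoblast-like (44.3 and 39.9 CPM), *Col10a1*-high (52.1 and 30.0 CPM) and *Matn3*-high chondrocyte-like cells (41.1 and 39.9 CPM) followed, again overlapping. The *Notum*-high chondrocyte-like cells, which had *Runx2* at a level near that of the *Col10a1*-high cells, held only 8.63 and 5.91 CPM of *Sp7*. No *Sp7* UMI was found in 115 untreated and 160 calcitriol-injected *Chodl*-high tendon-like cells, which allows a share of cells with a UMI of up to 2.61% and 1.88%.

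*Dlx5* was the least ordered member, since the libraries' ranges were apart in only 1 of the 12 steps between neighbouring types, against 6 for *Runx2* and 6 for *Sp7*. It was 56.2 and 48.6 CPM in the *Postn*-high osteoblast-like cells and 50.1 and 36.6 CPM in the *Igfbp2*-high tendon-like cells. The *Bglap*-high osteoblast-like cells had 46.3 and 24.9 CPM, and the osteocyte-like cells 45.3 and 19.2 CPM from 10 and 17 UMIs. The *Matn3*-high chondrocyte-like cells, high in *Runx2* and *Sp7*, held 6.31 and 12.8 CPM. Outside the skeletal types, the smooth muscle and pericyte-like cells had 8.82 [2.87, 20.6] and 46.6 [32.7, 64.6] CPM, of which 5 of the 80 calcitriol-injected cells gave 72.2% of 36 UMIs.

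*Sox9* was detected in nearly all chondrocyte-like cells. The *Cytl1*-high cells had 1750 [1700, 1790] and 2360 [2320, 2390] CPM and the *Matn3*-high cells 1590 and 2000 CPM, and these overlapped between the libraries. The *Notum*-high (1240 and 1450 CPM), *Col10a1*-high (887 and 1260 CPM) and unnamed *Ibsp*-high cells (971 and 1080 CPM) formed the next tier. Among these 5 types, 93.5% to 100% of the cells held a *Sox9* UMI in either library. *Sox9* was not restricted to cartilage. The *Kera*-high tendon-like cells had 457 and 392 CPM, with a UMI in 60.1% and 53.8% of the cells. The 5 cells with the most *Sox9* gave 41.2% and 33.1% of the UMIs of this type, so its *Sox9* was not even among its cells. The *Postn*-high osteoblast-like cells had 205 and 339 CPM, the fibroblast-like cells 158 and 161 CPM, and the *Chodl*-high tendon-like cells were lowest of the skeletal types with 87.4 and 110 CPM. In the endothelial-like cells *Sox9* was 15.0 and 34.3 CPM, with a UMI in 4.49% and 5.88% of the cells at a median of 6959 and 6629 UMIs per cell.

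The partners of *Sox9* did not follow it alike. *Sox5* was highest in the synovial lining-like cells, at 383 [329, 443] and 255 [235, 276] CPM, although these cells held *Sox9* at only 162 and 201 CPM. All 25 untreated cells of this type and 93.7% of the 95 calcitriol-injected ones had a *Sox5* UMI. The *Matn3*-high (220 and 198 CPM) and *Cytl1*-high chondrocyte-like cells (208 and 164 CPM) came next and overlapped. The *Notum*-high (136 and 113 CPM), *Col10a1*-high (93.3 and 111 CPM) and *Ibsp*-high cells (87.9 and 87.6 CPM) lay lower. Neighbours among them did not overlap between the libraries, but the gaps were within the counting error. Smooth muscle and pericyte-like cells also held *Sox5*, at 70.6 and 66.1 CPM, above the 4.88 and 10.5 CPM of the endothelial-like cells.

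*Sox6* ranged less widely than *Sox5* among the chondrocyte-like types. The *Notum*-high (102 and 62.3 CPM), *Matn3*-high (79.3 and 80.9 CPM), *Cytl1*-high (79.9 and 60.6 CPM) and *Col10a1*-high cells (63.0 and 57.2 CPM) overlapped with their neighbours. Within the untreated library alone, the *Notum*-high cells (166 UMIs) were above the *Col10a1*-high cells (127 UMIs). The highest level of *Sox6* lay outside the skeleton. The erythroid-like cells held *Sox6* at 312 [305, 319] and 278 [262, 295] CPM and contributed 85.9% of its UMIs in the untreated library and 37.6% in the calcitriol-injected one. SOX6 is a known factor of red cell maturation. The level differed among the 7 erythroid-like clusters, from 3.33 to 552 CPM in the untreated library. It was 552 and 663 CPM in the cluster richest in *Mki67*, a marker of dividing cells (2810 and 3150 CPM). In one with *Mki67* at 2.08 and 0 CPM it was 3.33 and 0 CPM, the latter from 10 cells. Between these ends the genes did not keep the same order. In the untreated library a cluster with *Mki67* at 2250 CPM had *Sox6* at 320 CPM, and one with 362 CPM had 411 CPM. No other member passed 10 CPM in the erythroid-like class of either library. Because *Sox6* was abundant there, haemoglobin is given beside it. The chondrocyte-like class held 79.9 and 65.1 CPM of *Sox6* with at most 34800 CPM of haemoglobin in a type, and the erythroid-like cells held 0.462 and 0.363 *Sox6* UMIs per 1000 haemoglobin UMIs. In the chondrocyte-like types this ratio was 2.56 to 7.38 in the untreated library and 9.41 to 275 in the calcitriol-injected library. In the untreated fibroblast-like (0.396) and *Igfbp2*-high tendon-like cells (0.316) it was at or under that of the erythroid-like cells. The ratio of the erythroid-like cells is an average over clusters that differed widely in *Sox6*. Barcodes under 200 genes held *Sox6* at 2.22 and 1.22 CPM. The part of red cell RNA in the *Sox6* levels was not tested.

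**Figure D2:**
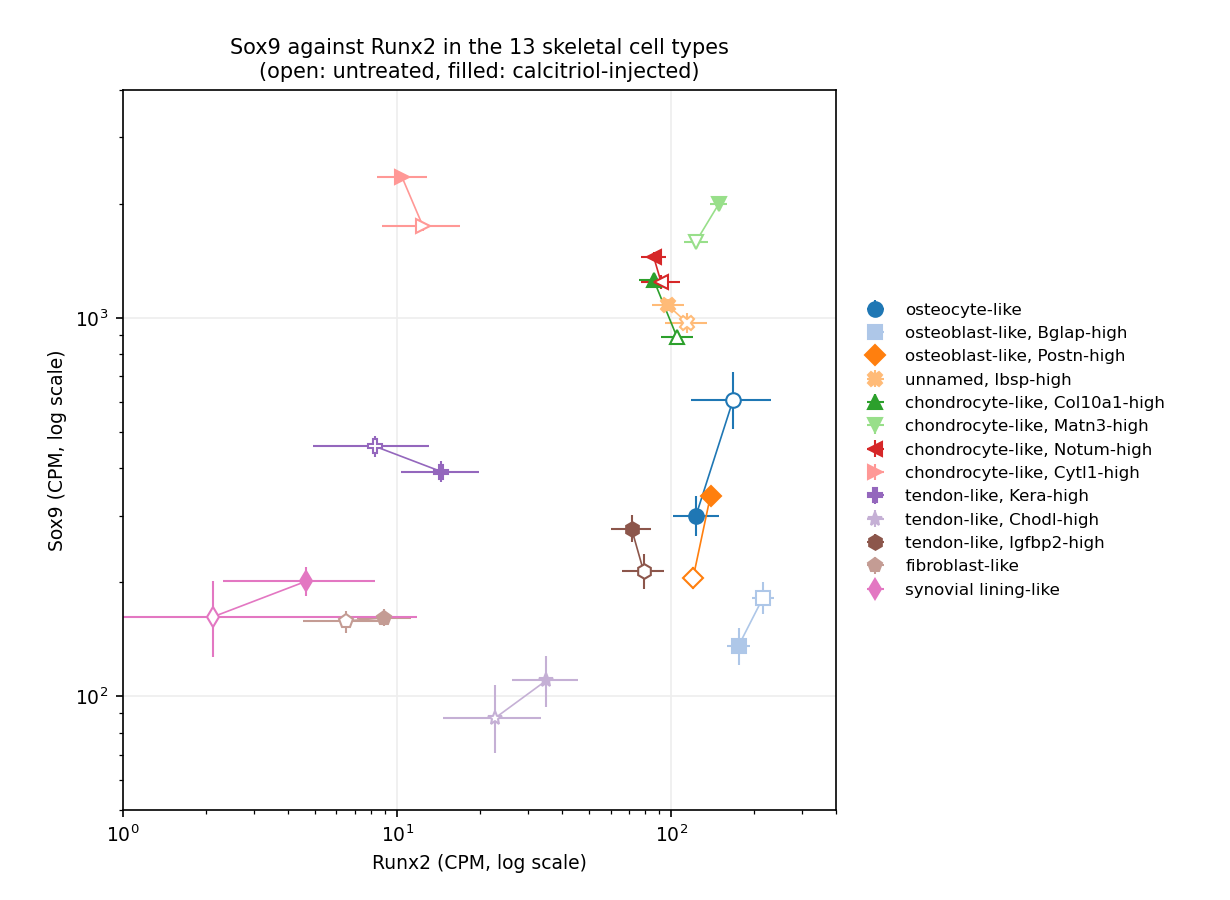
*Sox9* against *Runx2* in CPM, both on log axes, in the 13 skeletal types, with open symbols for the untreated and filled symbols for the calcitriol-injected library and bars for 95% counting intervals. A line joins the 2 libraries of a type. The *Cytl1*-high chondrocyte-like cells lie at high *Sox9* and low *Runx2* (12.4 and 10.4 CPM), whereas the other chondrocyte-like types lie at 86.2 CPM or more of *Runx2*.

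*Scx* and *Mkx* marked the tendon-like cells. *Mkx* was ordered in the same way in both libraries. The *Chodl*-high cells had 111 [92.2, 133] and 95.8 [80.8, 113] CPM, the *Kera*-high cells 53.6 and 40.0 CPM and the *Igfbp2*-high cells 26.0 and 23.2 CPM, each apart from the next, and all other skeletal types had 13.6 CPM or less. *Scx* followed the same order within the tendon-like class in the untreated library, with 474 [434, 517], 215 [196, 236] and 85.5 [71.7, 101] CPM. In the calcitriol-injected library it was 98.4 [83.2, 116], 35.8 [29.0, 43.9] and 36.1 [28.3, 45.4] CPM, so that the *Kera*-high and *Igfbp2*-high cells did not differ beyond their intervals there. The *Postn*-high osteoblast-like cells were the one type outside the tendon-like class with *Scx* in this range, at 118 [108, 128] and 42.9 [36.9, 49.7] CPM, against 22.9 and 16.0 CPM in the *Bglap*-high cells. *Scx* had 7 and 0 UMIs in the endothelial-like cells.

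*Twist1* divided the types along another line. It was highest in the *Igfbp2*-high tendon-like (369 and 298 CPM) and *Postn*-high osteoblast-like cells (328 and 286 CPM), which overlapped. The *Bglap*-high osteoblast-like (276 and 203 CPM) and *Chodl*-high tendon-like cells (201 and 232 CPM) came next. Within cartilage it split the types that *Sox9* joined. The *Notum*-high (113 and 116 CPM) and *Cytl1*-high cells (115 and 92.3 CPM) held more *Twist1* than the *Matn3*-high (20.1 and 16.5 CPM) and *Col10a1*-high cells (20.8 and 22.0 CPM). The *Matn3*-high and *Col10a1*-high cells were also the chondrocyte-like types with the most *Sp7*. The synovial lining-like cells (27.6 and 19.4 CPM) lay as low as these chondrocyte-like types and below the fibroblast-like cells (140 and 132 CPM).

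Marrow stroma-like cells were few, with 20 in the untreated library and 2 in the other. The 20 untreated cells held *Runx2* at 169 [113, 245] CPM, *Sp7* at 42.4 [17.0, 87.3] CPM, *Dlx5* at 54.5 [24.9, 103] CPM and *Twist1* at 157 CPM, with no *Scx* or *Sox5* UMI. Their levels of the 3 bone factors lay within the range of the osteoblast-like types.

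The members were next counted together in single cells. Detection depends on depth, and the types differed from a median of 7447 UMIs in the untreated osteocyte-like cells to 39151 in the untreated *Col10a1*-high cells, so that shares are also given for cells thinned at random to 5000 UMIs. *Runx2*, *Sp7* and *Dlx5* were found together in 69 of 350 untreated osteoblast-like cells (19.7%) and 56 of 330 calcitriol-injected ones (17.0%). At 5000 UMIs the shares were 2.69% and 2.96%. The *Col10a1*-high chondrocyte-like cells showed the bone trio in 37.3% and 23.0% of the cells, but in none of the 50 and 83 thinned ones. So few thinned cells also allow a share as high as that of the thinned osteoblast-like cells. Their higher share was thus not seen at equal depth, but the thinned cells cannot settle the order. The trio was seen in 1 of 267 and 0 of 306 endothelial-like cells.

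*Sox9*, *Sox5* and *Sox6* were found together in 63.7% [59.0, 68.1] of 446 untreated chondrocyte-like cells and 48.6% [45.6, 51.7] of 1051 from the calcitriol-injected library. At 5000 UMIs the shares were 19.7% and 12.4%. Among the 4 types, the *Matn3*-high cells had the trio most often as counted (82.1% and 74.3%), with 21.9% and 16.9% at equal depth. The thinned *Cytl1*-high cells held it in 22.5% of the untreated cells and in 70 of 540 calcitriol-injected ones, a lower share than in the *Matn3*-high cells of that library. Of the unnamed *Ibsp*-high cells, 24.6% and 29.9% held the trio, and 6.15% and 4.11% when thinned. The *Kera*-high tendon-like cells reached 12.6% and 11.4%, and the synovial lining-like cells 32.0% and 21.1%, but 0 of 25 cells and 2.11% at 5000 UMIs. No endothelial-like cell held the trio.

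*Scx* and *Mkx* were found together in 28.1% [23.6, 32.9] of 377 untreated tendon-like cells and 12.5% [9.70, 15.8] of 479 from the calcitriol-injected library, and in 12.6% and 5.46% at 5000 UMIs. In the *Kera*-high cells the share was 37.1% and 8.15% (14.3% and 1.18% when thinned), and in the *Chodl*-high cells 37.4% and 19.4% (19.5% and 14.8%). The *Igfbp2*-high cells had 8.40% [4.10, 14.9] and 10.4% [5.79, 16.8] as counted, which did not differ beyond their intervals. When thinned they had 4.04% and 2.33%, from 4 and 3 cells. Outside the tendon-like class, the *Postn*-high osteoblast-like cells held the pair in 9.66% and 7.44% of the cells and the *Bglap*-high cells in 2.68% and 8.70%. When thinned, these shares were 0.866% and 0.976% in the *Postn*-high cells, and 0 of 104 and 1 of 99 *Bglap*-high cells held the pair. The pair was found in 1 of 437 and 0 of 667 fibroblast-like cells.

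**Figure D3:**
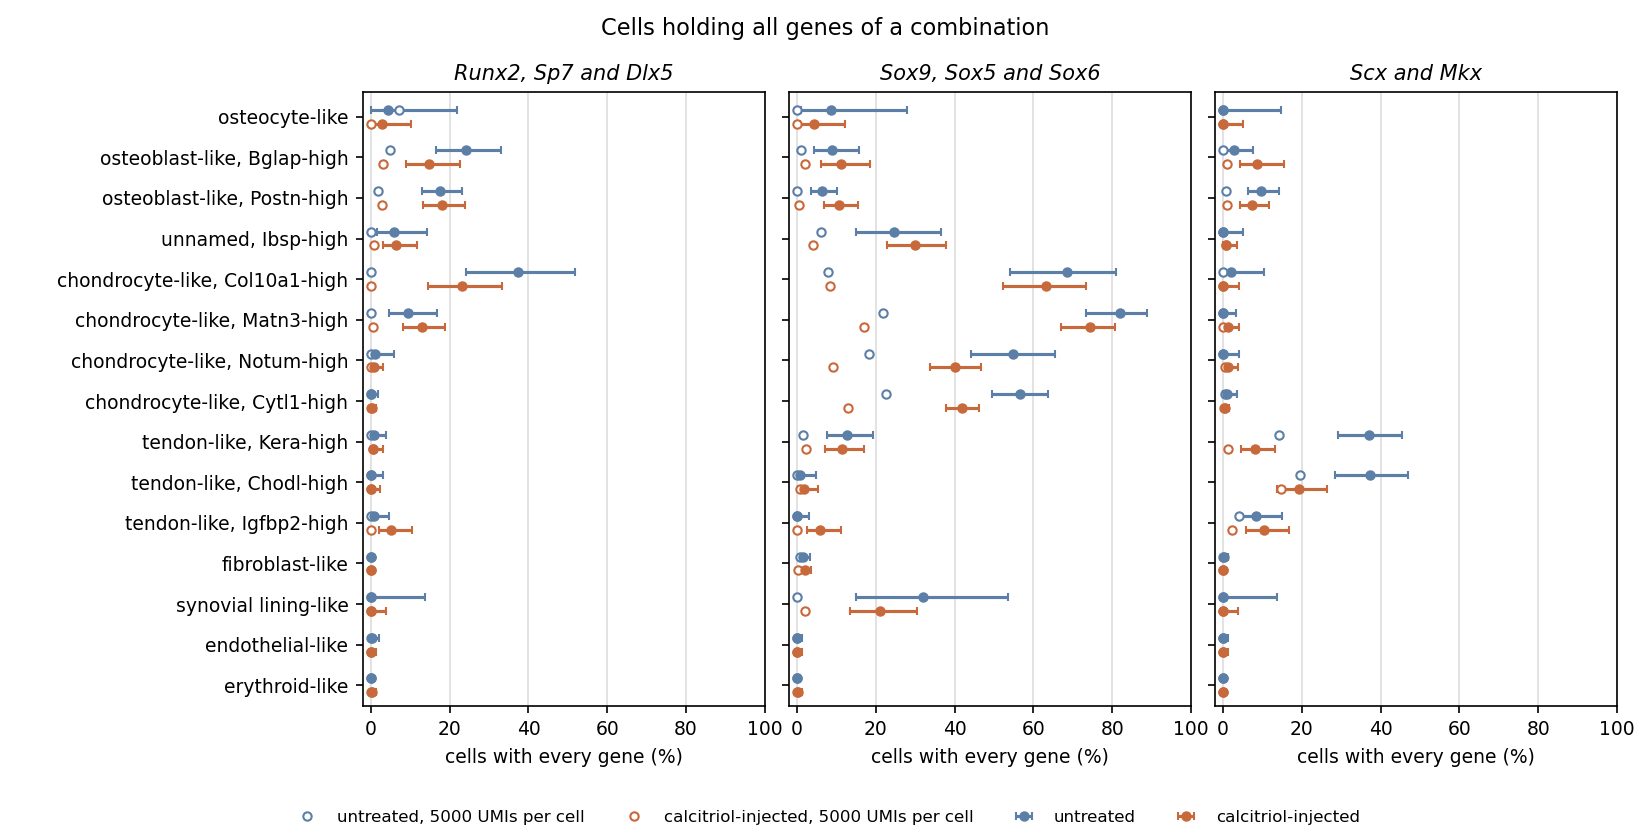
Share of cells (x axis, %) that held at least 1 UMI of every gene of a combination, by cell type, with blue for the untreated and orange for the calcitriol-injected library. Filled points are cells as deposited with 95% Clopper-Pearson intervals, and open points are cells thinned to 5000 UMIs. The cartilage trio lies at 40.2% to 82.1% in the chondrocyte-like types as deposited and at 22.5% or less when thinned, and the *Scx* and *Mkx* pair is highest in the untreated *Kera*-high and *Chodl*-high cells.

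Cells with both *Sox9* and *Runx2* were found in the osteoblast-like and chondrocyte-like types alike. At 5000 UMIs both were seen in 44.8% and 41.6% of the *Matn3*-high, 30.0% and 31.3% of the *Col10a1*-high and 33.8% and 30.8% of the *Ibsp*-high cells. The *Postn*-high osteoblast-like cells had 22.1% and 27.8% and the *Bglap*-high cells 23.1% and 17.2%. The *Cytl1*-high chondrocyte-like cells had 5.62% and 2.22%, the fibroblast-like cells 1.23% and 1.31%, and no thinned endothelial-like cell held both. Of 171 untreated and 494 calcitriol-injected *Cytl1*-high cells with *Sox9* and no *Runx2*, which were 86.4% and 87.6% of this type, none can be said to lack *Runx2*, since only a UMI is counted. The reverse, *Runx2* without *Sox9*, was seen in 0 of 446 and 6 of 1051 chondrocyte-like cells but in 23.1% and 21.5% of the osteoblast-like cells. *Sox9* and *Scx* were found together in 16.4% and 2.35% of the thinned *Kera*-high and 15.6% and 10.2% of the thinned *Postn*-high cells.

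The osteocyte-like cells carried *Runx2* and *Sp7* at the level of the osteoblast-like types but far less *Twist1*, at 45.3 [21.7, 83.3] and 66.8 [50.9, 86.2] CPM. In the untreated library *Sp7* and *Twist1* rested on 10 UMIs each, and 1 cell held 5 of the *Twist1* UMIs. Most of the alternative clusterings named no osteocyte-like class. The osteocyte-like cells also held *Sox9*, at 607 [508, 719] CPM in 23 untreated and 300 [265, 338] CPM in 69 calcitriol-injected cells. To see whether *Sox9* came with the cells that lack osteocyte genes, the class was divided by *Dmp1*, *Mepe* and *Phex*. At least 2 of them were seen in 20 of the 23 and 63 of the 69 cells, which had *Sox9* at 612 [510, 728] and 250 [218, 287] CPM, with a UMI in 55.0% and 55.6% of these cells. The other cells of the calcitriol-injected library were few. There, 4 cells with exactly 1 of the genes had 39 *Sox9* UMIs (1330 [948, 1820] CPM) and 2 cells with none had 16 (1050 [601, 1710] CPM). These levels were above that of the cells with at least 2, but they rest on too few cells to say that the cells differ. In the untreated library 3 cells had exactly 1 of the genes, with *Sox9* at 524 [211, 1080] CPM, and 0 cells had none. The *Sox9* UMIs were unevenly spread, and 1 untreated cell held 55 of the 134 UMIs and 1 calcitriol-injected cell 48 of the 265. Without these cells the levels were 414 and 258 CPM. The summed level of the 8 chondrocyte markers in this class was 1640 CPM without calcitriol (7 of 8 detected, *Matn3* at 0) and 654 CPM with it (8 of 8). That of the 8 osteoblast markers was 81300 CPM (7 of 8, *Postn* at 0) and 25900 CPM (8 of 8). Their part in the *Sox9* level was not tested.

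The unnamed *Ibsp*-high cells held the cartilage factors with *Runx2* and with less of *Sp7* and *Dlx5*. *Dlx5* had 18 and 39 UMIs. *Runx2*, *Sp7* and *Dlx5* were together in 5.80% and 6.49% of these cells, against 9.43% and 12.9% of the *Matn3*-high cells. When thinned, the shares were 0% and 0.685% against 0% and 0.649%. *Sox9* was at the level of the *Col10a1*-high cells, and *Runx2* was 114 and 97.0 CPM. *Sp7* was 22.9 [14.8, 33.8] and 27.0 [20.8, 34.6] CPM, between the *Matn3*-high and the *Notum*-high cells, and *Twist1* was 93.4 and 122 CPM and overlapped with the *Notum*-high and *Cytl1*-high cells. At least 2 of *Dmp1*, *Mepe* and *Phex* were seen in 7 untreated and 12 calcitriol-injected cells of this cluster, in which *Sox9* was 1550 and 929 CPM, against 863 and 1160 CPM in the 36 and 106 cells with none. Doublets scored against simulated pairs made up 4.35% and 0.649% of this cluster and 0% and 1.45% of the osteocyte-like cells.

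The 2 libraries were then compared within 6 classes, with the clusters of a class summed. A gene was rated in a class with at least 50 UMIs over both libraries, and a difference of at least 2-fold in either direction was counted. The 9 members gave 41 rated pairs of gene and class. Of these 0 were at least 2-fold higher and 5 at least 2-fold lower in the calcitriol-injected library, or 12.2%. By class this was 1 of 4 rated members in the osteocyte-like cells, where 12.9% of all rated genes were past 2-fold. It was 1 of 9 in the osteoblast-like cells (5.96% of all), 0 of 9 in the chondrocyte-like cells (7.78%) and 1 of 8 in the tendon-like cells (7.05%). In the fibroblast-like cells it was 1 of 7 (5.98%) and in the synovial lining-like cells 1 of 4 (10.4%). With so few members per class, 1 gene alone takes a share near or above that of all genes. Across all rated genes the median log2 ratio lay between -0.097 and -0.050 in 5 classes and was -0.28 in the synovial lining-like cells.

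*Scx* made up 3 of the 5 pairs. In the tendon-like class it was 232 [218, 246] and 51.3 [45.8, 57.3] CPM, from 1122 and 316 UMIs, a log2 ratio of -2.18 [-2.36, -1.99]. The intervals of the libraries did not overlap, and *Scx* was at least 2-fold lower in each of the 3 clusters, with log2 ratios of -2.59 [-2.92, -2.26] in the *Kera*-high, -2.27 in the *Chodl*-high and -1.25 [-1.68, -0.82] in the *Igfbp2*-high cells. Fewer cells held it (59.4% and 26.3%, or 42.3% and 14.7% at 5000 UMIs), and the positive cells held fewer UMIs each, with a median of 3 and 1. In the osteoblast-like class the log2 ratio was -1.36 [-1.59, -1.13], which came from the *Postn*-high cells (-1.46) more than from the *Bglap*-high cells (-0.52 [-1.16, 0.11]). The 8 tendon markers summed to 2040 and 1930 CPM in the *Postn*-high cells (8 of 8 detected, then 7 of 8 with *Chodl* at 0). Within that sum *Tnmd* was 48.9 and 9.49 CPM, *Kera* 13.8 and 0.712 CPM and *Chodl* 7.38 and 0 CPM. These 3 were lower in the calcitriol-injected library. The sum, to which they gave little, was close between the libraries. The part of the tendon markers in the *Scx* difference was not tested. In the fibroblast-like class *Scx* was low in both libraries, at 8.57 and 3.26 CPM from 46 and 29 UMIs, with a log2 ratio of -1.40 [-2.12, -0.69]. The tendon markers summed to 648 and 768 CPM there and the erythroid markers to 19700 CPM (8 of 8) and 6610 CPM (7 of 8, *Car1* at 0), and their part was not tested either. The chondrocyte-like cells showed no such difference, with 11.5 and 10.8 CPM (-0.08 [-0.41, 0.25]). *Bop1*, within which *Scx* lies on the other strand, was 20.2 and 6.82 CPM in the tendon-like cells, with a log2 ratio of -1.57 [-2.13, -1.03], 20.6 and 12.3 CPM in the osteoblast-like cells (-0.74) and 9.97 and 6.33 CPM in the chondrocyte-like cells (-0.65), where *Scx* differed little. The counts are from Cell Ranger, and the sources used here do not state how strand entered the counting. Whether reads of one gene of the pair were counted for the other was not tested.

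*Mkx*, the other tendon factor, differed far less. In the tendon-like class it was 57.6 [51.1, 64.8] and 48.2 [42.9, 54.0] CPM, a log2 ratio of -0.26 [-0.50, -0.02]. *Twist1* (-0.11 [-0.22, 0.00]) and *Sox9* (-0.04 [-0.15, 0.06]) were also close between the libraries in these cells, and *Sox5* was higher without reaching 2-fold, at 19.4 and 37.8 CPM (0.96 [0.61, 1.32]). The summed level of the 8 tendon markers in the class was 13300 and 15900 CPM (8 of 8 detected in both), that of the 8 osteoblast markers 16200 and 10100 CPM, that of the 8 fibroblast markers 1320 and 844 CPM (8 of 8 in both for each) and that of the 8 erythroid markers 19600 and 4370 CPM (7 of 8 in both, *Car1* at 0). The part of these cells' RNA in the differences was not tested.

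**Figure D4:**
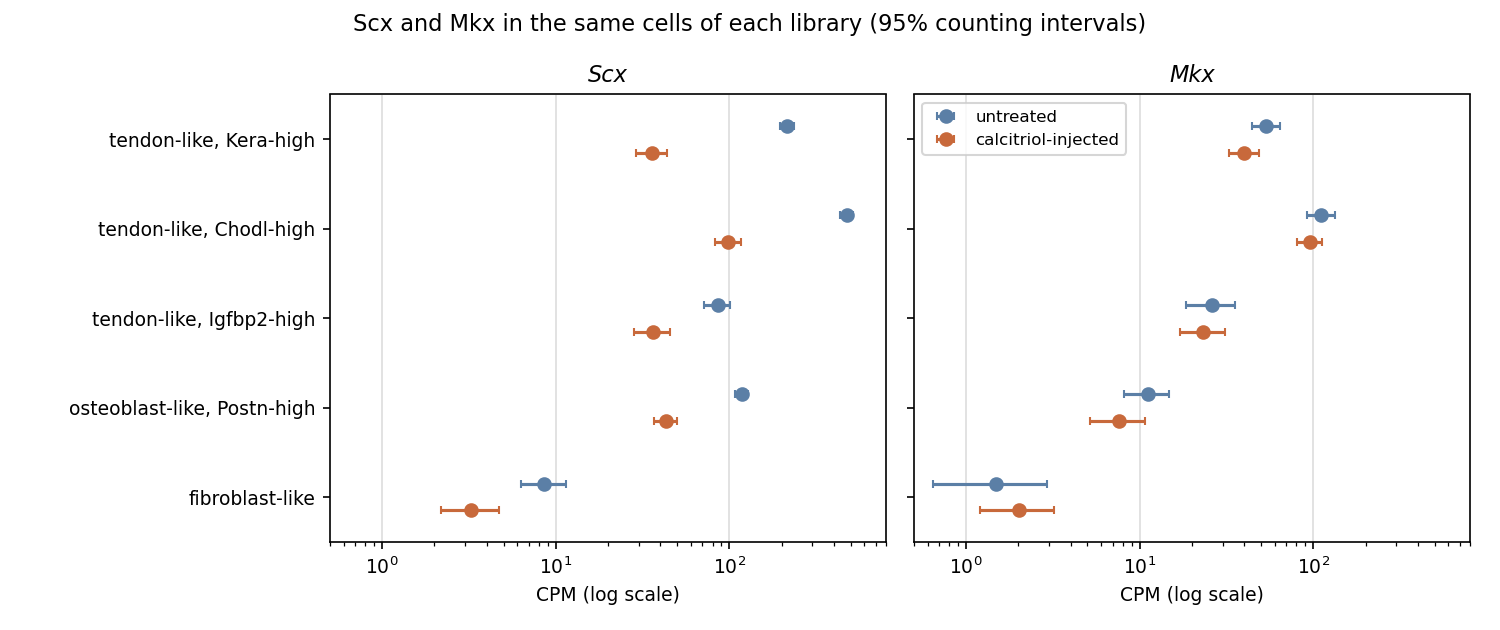
Level of *Scx* (left) and *Mkx* (right) in CPM on a log axis in the tendon-like types, the *Postn*-high osteoblast-like cells and the fibroblast-like cells of each library, with 95% counting intervals. *Scx* in the calcitriol-injected library lies below the untreated library in all 5 types, at 35.8 against 215 in the *Kera*-high cells, whereas the intervals of *Mkx* overlap in each of the 5.

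The other pairs past 2-fold rested on fewer counts. *Sox9* in the osteocyte-like cells had a log2 ratio of -1.02 [-1.32, -0.71], just past the limit. It was -0.68 without the highest cell of each library, an alternative chosen after seeing the data, and the mean of the cells' own CPM put it at 0.02, so this difference is not one that holds across the ways of counting. *Sox6* in the synovial lining-like cells was 42.5 and 15.2 CPM from 20 and 36 UMIs in 25 and 95 cells, a log2 ratio of -1.48 [-2.31, -0.62]. Haemoglobin was 987 and 6970 CPM in these cells. The 8 tendon markers summed to 1260 CPM (5 of 8 detected, *Kera*, *Angptl7* and *Chodl* at 0) and 314 CPM (7 of 8, *Kera* at 0). The 8 chondrocyte markers summed to 8.51 CPM (3 of 8) and 42.2 CPM (8 of 8). The part of any of these in the *Sox6* difference was not tested.

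In bone and cartilage most members differed by less than 2-fold. In the osteoblast-like class *Runx2* was 153 [144, 163] and 152 [143, 162] CPM, a log2 ratio of -0.01 [-0.13, 0.12], and *Sp7* was 45.1 and 48.0 CPM (0.09 [-0.14, 0.32]). *Dlx5* was lower in the calcitriol-injected library, at 52.8 and 40.1 CPM (-0.40 [-0.63, -0.16]), and *Sox5* was higher (0.64 [0.34, 0.95]). *Sox9* was higher over the class (0.43 [0.33, 0.54]), but its 2 clusters went opposite ways, with 0.73 [0.61, 0.85] in the *Postn*-high and -0.42 [-0.64, -0.21] in the *Bglap*-high cells. The 8 chondrocyte markers summed to 924 and 389 CPM in the osteoblast-like class (8 of 8 detected in both), and their part in this was not tested. In the chondrocyte-like class *Sox9* was 1440 [1420, 1460] and 1930 [1910, 1940] CPM (0.42 [0.39, 0.45]), and it was higher in the calcitriol-injected library in each of the 4 types, while the 8 chondrocyte markers summed to 51100 and 29900 CPM (8 of 8 detected in both). Their part in the *Sox9* difference was not tested. *Sox5* (-0.21 [-0.29, -0.12]) and *Sox6* (-0.30 [-0.42, -0.17]) were lower. *Sp7* had the largest difference in cartilage, at 26.5 [23.4, 29.9] and 15.7 [14.1, 17.5] CPM (-0.75 [-0.99, -0.52]). The *Cytl1*-high cells, which are low in *Sp7*, made up 198 of 446 untreated and 564 of 1051 calcitriol-injected chondrocyte-like cells. Within the types *Sp7* was 52.1 and 30.0 CPM in the *Col10a1*-high (-0.80 [-1.21, -0.39]) but 41.1 and 39.9 CPM in the *Matn3*-high cells. Such differences cannot be told apart from those between any 2 libraries of pooled mice.

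**Figure D5:**
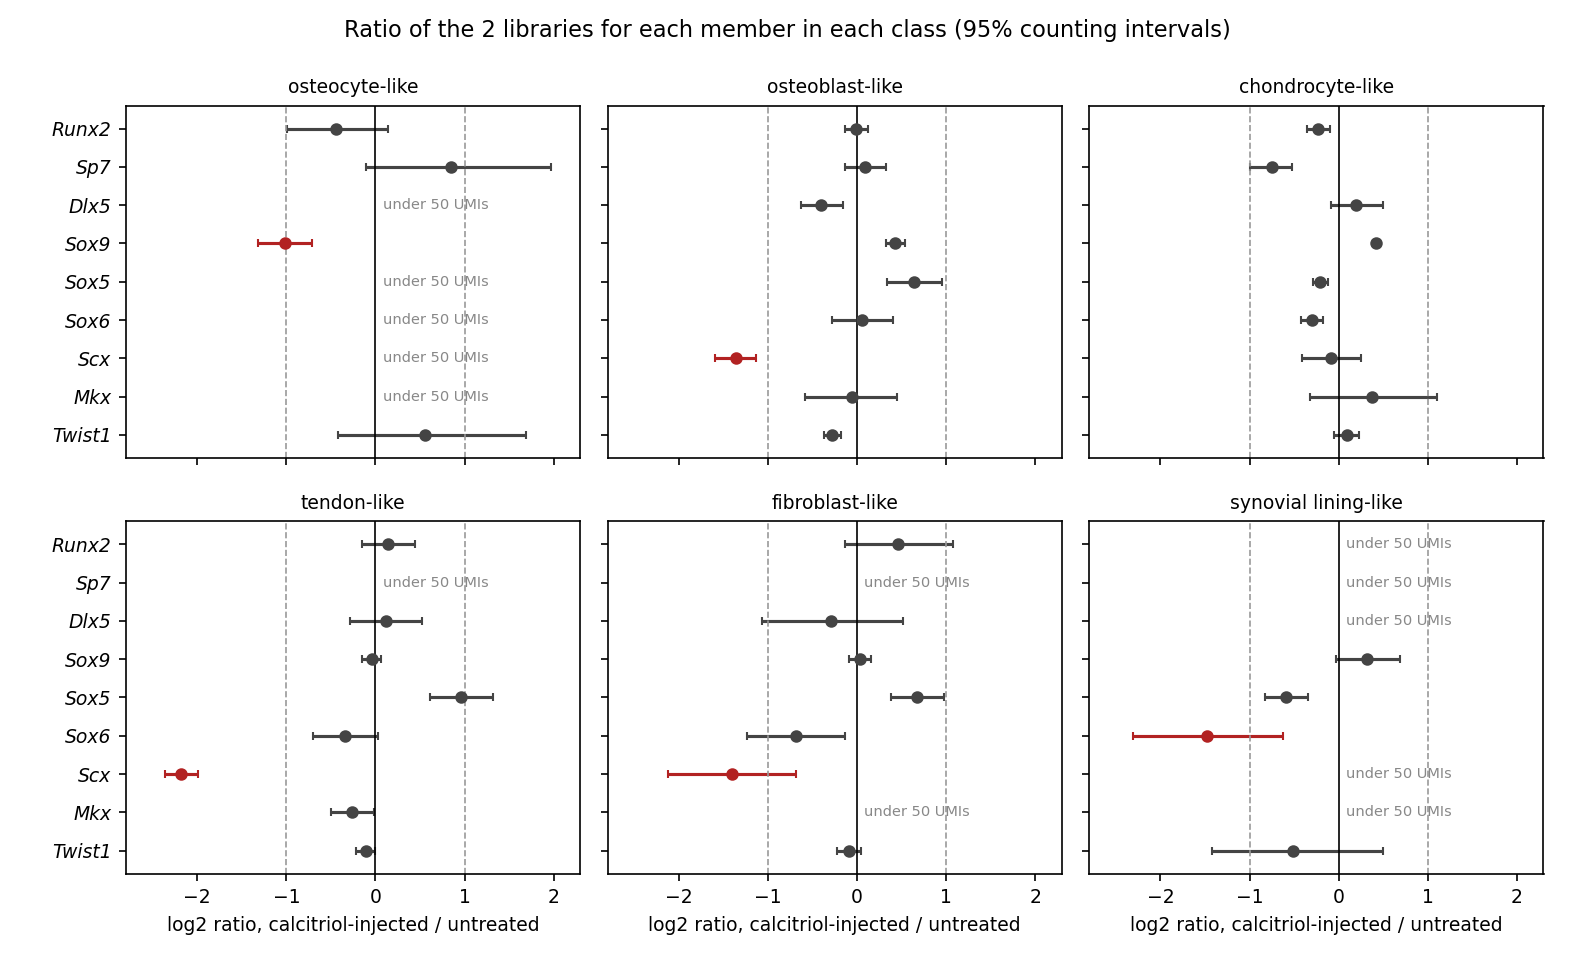
Log2 ratio of the calcitriol-injected over the untreated library (x axis) for each member (y axis) in 6 classes, with exact 95% counting intervals and dashed lines at 2-fold. The 5 red points, 3 of them *Scx*, are past 2-fold, and members with under 50 UMIs over both libraries have no point.

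Beside the members, 24 related transcription factors were followed. They gave 85 rated pairs of gene and class, with 6 at least 2-fold higher, 1 at least 2-fold lower and 78 within 2-fold, or 8.24% past 2-fold. *Sox4*, a SOXC factor of progenitor cells, was higher in the fibroblast-like (52.6 and 253 CPM, log2 ratio 2.27 [2.09, 2.45]) and tendon-like cells (65.1 and 186 CPM, 1.52 [1.34, 1.70]). *Osr2*, an odd-skipped factor of limb connective tissue and joints, was higher in the tendon-like (14.3 and 30.5 CPM, 1.10) and osteoblast-like cells (3.48 and 7.74 CPM, 1.15). *Egr1*, an immediate early gene that also acts in tendon, was higher in the synovial lining-like cells (1200 and 2550 CPM, 1.09), and *Cbfb*, the partner of the RUNX proteins, in the osteocyte-like cells from 10 and 84 UMIs (1.07 [0.12, 2.18]). *Msx2* was lower in the chondrocyte-like cells (6.78 and 3.24 CPM, -1.07). *Prrx1*, a limb mesenchyme factor, was 337 and 293 CPM in the fibroblast-like against 20.8 and 20.2 CPM in the chondrocyte-like class.

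The genes whose pattern was most like each member were found by Pearson's correlation of log2(CPM + 10) over 47 units of cluster and library with at least 20 cells, among 11857 genes. The units share 2 libraries and many belong to the same type, so the values are a description. *Runx2* was nearest to *Gpc1* (r = 0.937), *Sp7* (0.895) and *Pth1r* (0.888), the receptor of parathyroid hormone. *Sp7* was nearest to *Runx2*, *Pth1r* (0.859) and *Ccn4* (0.844), and *Dlx5* to *Fgfr2*, *Fat1* and *Mmp13* (0.811 to 0.813). *Sox9* was nearest to *Tiam2* (0.958), *Sdk2* (0.944) and *Pde4dip* (0.940). Its correlation with *Sox5* was 0.825 and with *Sox6* -0.218. These units include the erythroid-like class, which held the most *Sox6* and little *Sox9*, so the latter value does not describe cartilage alone. *Sox5* was nearest to *Zfp385b* (0.893), and *Sox6* to *Tfrc* (0.925), the transferrin receptor, and *Uros* (0.892), an enzyme of haem synthesis, which are genes of the erythroid-like units. *Scx* was nearest to *Mettl24* (0.882), *Mkx* (0.881) and *Six2* (0.864), and *Mkx* to *Six2* (0.925), *Tnmd* (0.894) and *Scx*. *Twist1* was nearest to *Col5a2* (0.936), *Bicc1* (0.924) and *Col5a1* (0.921).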

How the data were processed

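The authors deposited, for each library, the filtered matrix of UMI counts from Cell Ranger 4.0.0 (mm10, per the labels), without normalization. The members and lists were chosen with earlier results of these data known. Barcodes with under 200 genes and clusters past all 3 limits of the study (mitochondrial share over 10%, under 1000 genes and under 2000 UMIs, as medians) were left out. Both libraries were integrated on 2000 variable genes without the 9 members and clustered with 30 components at resolution 0.8 in Seurat 5.3.0 (R 4.3.3; the study's own version was 3.2.2), which gave 26 clusters. A marker was counted if seen in 25% of a cluster's cells and 3-fold over the median cluster, with 10 CPM added. A class needed 3 markers, more than any other class, and no other class ahead among the 10 leading genes, a rule set after the clusters were seen. It named 25 clusters. The Schwann-like, myeloid-like and other small classes were used only as background. Doublets (187 barcodes or 4.04% in the untreated and 128 or 3.27% in the calcitriol-injected library) were kept. Named genes are the members, 24 companions, the markers and 3 most similar genes per member, from genes with 200 UMIs, computed with Python 3.11.15 (numpy 2.4.6, scipy 1.17.1). Ratios and intervals were tested only on simulated Poisson sums for the tendon-like class, which hold no spread between cells and so cannot speak to it. The alternatives were other resolutions, components and variable genes, no integration, other limits, doublets left out, classes from single cells' marker UMIs, other scalings, thinned cells and 2 UMIs per gene. The values of 1 companion are not reported here.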

Additional observations from a re-analysis of the deposited data

Results flagged for a closer look

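*Sox9* and *Sox5* were picked out because their log2 ratios of calcitriol-injected over untreated had intervals on opposite sides of 0 in different classes. For *Sox9* they were 0.43 in the osteoblast-like and 0.42 in the chondrocyte-like cells against -1.02 in the osteocyte-like cells. For *Sox5* they were 0.64 in the osteoblast-like, 0.96 in the tendon-like and 0.67 in the fibroblast-like cells against -0.21 in the chondrocyte-like and -0.59 in the synovial lining-like cells. The difference between the classes was not tested, since each is 1 library against 1. Within the osteoblast-like class *Sox9* itself went opposite ways in its 2 clusters (0.73 in the *Postn*-high and -0.42 in the *Bglap*-high cells).

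Barcodes that entered no comparison also held members. In barcodes under 200 genes *Sox9* was 1.71 CPM without and 4.88 CPM with calcitriol, from 20 and 16 UMIs. In the clusters left out by the limits, *Sox5* was 49.6 and 106 CPM (40 and 67 UMIs) and *Twist1* 42.2 and 78.8 CPM (34 and 50 UMIs).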

How the results depend on the processing

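Each group is 1 library, so no setting speaks to the spread between mice. No paired analysis was possible because each group has 1 library. The number of pairs past 2-fold was 5 and stayed between 4 and 7 except with cells thinned to 5000 UMIs, which left 30 rated pairs and 2 past 2-fold, both *Scx*. *Scx* was past 2-fold in all alternatives that gave a value, at -2.37 to -2.03 in the tendon-like, -1.59 to -1.30 in the osteoblast-like and -2.26 to -1.38 in the fibroblast-like cells, as was *Sox6* in the synovial lining-like cells (-1.59 to -1.32). *Sox9* in the osteocyte-like cells passed 2-fold in 2 of 8 alternatives and turned to 0.02 with the mean of the cells' own CPM. No osteocyte-like class was named at resolution 0.5, with 20 components, with the members kept, without integration or with clusters past any limit left out. *Sox5* in the tendon-like cells passed 2-fold under 4 alternatives (1.06 to 1.33) and *Dlx5* there without integration (1.59, against 0.12). In the osteocyte-like cells *Twist1* was 2.09 (against 0.56) with classes from marker UMIs of single cells, *Runx2* -1.33 (against -0.44) with the mean of the cells' own CPM, and *Dlx5* -1.23 with at least 20 UMIs. *Scx* in the synovial lining-like cells, not rated otherwise, was -3.70 with classes from marker UMIs of single cells. Shares of cells with a combination fell with depth. At 2000 UMIs per cell they were 4.77% and 3.16% for the cartilage trio, 0.287% and 0% for the bone trio and 4.59% and 1.07% for *Scx* with *Mkx* (untreated, then calcitriol-injected). At 5000 UMIs they were 19.7% and 12.4%, 2.69% and 2.96%, and 12.6% and 5.46%. With 2 UMIs of each gene they were 34.3% and 26.2%, 5.71% and 2.73%, and 12.2% and 3.34%. Classes from marker UMIs of single cells gave 53.6% for the calcitriol-injected cartilage trio and 34.1% for untreated *Scx* with *Mkx*. No integration gave 14.8% for the untreated bone trio and 37.3% for untreated *Scx* with *Mkx*. The calcitriol-injected bone trio was 12.8% with 20 components and 11.9% with the members kept. Of 990 levels and 462 ratios recomputed, 830 and 421 stayed within the interval of the value reported.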
